A study of Mus musculus with 2 samples.

Results

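The 10 genes Vegfa, Slc2a1, Hilpda, Pdk4, Pgk1, Ldha, Bnip3, Ndrg1, Pfkfb3 and Hk2, which belong to the hypoxia response and to glucose metabolism, were followed through the mammary luminal cells of both mouse groups. They were taken by symbol from the 31053 genes of the count matrices, and all 10 were present in both. The WT group was Sox9-GFP, and the C3-TAg group was Sox9-GFP;C3-TAg, so both carried the Sox9 reporter and only the second carried the transgene. Both were of the FVB/NJ strain and 3.5 months old, and their luminal cells were taken from the mammary gland. In C3-TAg mice the rat C3(1) promoter drives the simian virus T antigens, which bind p53 and Rb, in mammary epithelium and in some other epithelia, and the mice develop mammary tumours. Neither GFP nor T antigen has a row in the matrices, so the genotype could not be checked from them. The sources used here do not give the sort gate.

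Each group was 1 library of droplet-based 3′ single-cell RNA sequencing. No difference between the groups therefore has a replicate check, none was tested, and genotype, animal and library cannot be told apart. Unique molecular identifiers (UMIs), which count captured molecules, numbered 91133082 over 8993 barcodes in WT and 91932121 over 9575 in C3-TAg. The 2 barcode lists shared 20 barcodes. After filters and doublet removal 7046 WT and 7914 C3-TAg cells were kept, with medians of 10296 and 8684 UMIs.

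Cells were put into 3 classes. Hormone-sensing cells had 5 or more UMIs of Areg, Pgr, Esr1 and Cited1 per 10000 UMIs, and numbered 2720 in WT and 2027 in C3-TAg. The other cells were split at 0.5% of UMIs from the caseins Csn1s1, Csn1s2a, Csn2 and Csn3. Casein-high cells, which make milk protein transcripts, numbered 3750 in WT and 2491 in C3-TAg, and casein-low cells 576 in WT and 3396 in C3-TAg. These are ranges of a measure and not cell types, and between 7 and 141 cells of a class lay between 4 and 6 UMIs per 10000 on the first gate. All 6 luminal markers (Krt8, Krt18, Krt19, Epcam, Cldn3, Cldn4) were detected in every class of both libraries. The classes differed between the libraries in more than genotype. Cells with 2 or more UMIs per 10000 of 20 mitotic (G2M) genes made up 1.40% of hormone-sensing, 0.667% of casein-high and 3.12% of casein-low WT cells, against 20.97%, 74.35% and 81.8% in C3-TAg. The hormone-sensing class also leaned on Areg more in C3-TAg. Chosen without Areg, at 2 or more UMIs per 10000 of the other genes of the gate, it held 2683 WT and 1498 C3-TAg cells. Of these 1.38% and 8.41% were G2M-high. The summed level of 10 basal markers in casein-low cells per 1000000 UMIs (CPM) was 373 in WT and 899.6 in C3-TAg, with all 10 detected in both. The keratin genes Krt14 (147 in WT, 411 in C3-TAg) and Krt17 (103.6 and 384) made up most of it, while 6 of the 10 were lower in C3-TAg, among them Krt5 (45.5 in WT, 0.839 in C3-TAg). The sum also differed in hormone-sensing (26.6 and 348.9 CPM) and casein-high cells (56.9 and 503 CPM), and its part in the results was not tested. Casein-low cells included 27 cells with stromal, endothelial or immune markers in WT and 23 in C3-TAg.

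Most of these genes share a regulator. When oxygen is short, the hydroxylases that mark HIF-1α for destruction by VHL slow down, and HIF-1α with its partner ARNT binds short motifs that contain ACGTG or GCGTG near its targets. The targets include the glucose transporter, most glycolytic enzymes, kinases that keep pyruvate out of the citric acid cycle, and VEGF-A, which calls in blood vessels. In the mammary gland glucose is also the precursor of lactose, and the secretory cell depends on the transporter encoded by Slc2a1 for milk synthesis. Several of these genes also answer to insulin, glucocorticoids, fatty acids and growth signals, so that their transcripts are not a reading of oxygen alone.

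RefSeq promoter windows, on GRCm38.p6, were found for 9 of the 10 genes at 13 transcription starts, each read over the 250 bases before the start. ACGTG was searched on both strands, so that it also counts as CACGT, and a CACGTG palindrome counts once on each strand. It occurred at 9 of the 13 starts, in 8 of the genes, against 16.6% of all 32851 promoter windows of this length. GCGTG, likewise on both strands, occurred at 7 starts, in 7 genes, against 28.2% of all windows. At least 1 of these motifs was found at 11 starts, against 38.6% of all windows. These starts covered all 9 genes, but a gene with 2 starts had 2 windows in which to match. Hilpda matched at 1 of its 2 starts, whose windows overlap. The members were picked as genes of the hypoxia response and glucose metabolism, so the shares of all windows are a background and not a test. The windows of Pgk1, Ldha, Hk2 and Vegfa are shown as examples of windows with several matches and with none, chosen among those that no annotated exon overlaps. Capitals mark ACGTG or GCGTG on either strand, and each window runs 5′ to 3′ along its gene. The Pgk1 window is chrX:106186850-106187099 on the plus strand, the Ldha window chr7:46845554-46845803 on the plus strand, the Hk2 window chr6:82774455-82774704 on the minus strand and the Vegfa window chr17:46032378-46032627 on the minus strand. The Pgk1, Hk2 and Vegfa windows lie outside their annotated genes, just upstream, and the Ldha window lies between exons of the annotated gene, before a RefSeq start. The bases that follow the Ldha and Vegfa starts shown were not found in a GENCODE transcript of the gene, whereas those of Pgk1 and Hk2 were.
Pgk1: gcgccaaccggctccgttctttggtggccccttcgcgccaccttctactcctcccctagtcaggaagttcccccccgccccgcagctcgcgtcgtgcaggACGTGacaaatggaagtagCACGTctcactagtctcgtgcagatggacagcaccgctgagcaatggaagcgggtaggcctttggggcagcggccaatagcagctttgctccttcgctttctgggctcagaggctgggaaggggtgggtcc
Ldha: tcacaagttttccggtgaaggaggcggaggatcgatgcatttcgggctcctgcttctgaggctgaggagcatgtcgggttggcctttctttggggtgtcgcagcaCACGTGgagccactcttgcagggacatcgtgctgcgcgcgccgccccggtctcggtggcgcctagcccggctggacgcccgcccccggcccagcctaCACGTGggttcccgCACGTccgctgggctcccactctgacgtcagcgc
Hk2: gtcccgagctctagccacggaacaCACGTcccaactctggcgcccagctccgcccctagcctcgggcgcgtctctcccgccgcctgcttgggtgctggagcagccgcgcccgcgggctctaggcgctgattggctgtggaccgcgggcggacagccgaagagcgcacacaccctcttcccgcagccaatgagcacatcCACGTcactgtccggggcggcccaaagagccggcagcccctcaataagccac
Vegfa: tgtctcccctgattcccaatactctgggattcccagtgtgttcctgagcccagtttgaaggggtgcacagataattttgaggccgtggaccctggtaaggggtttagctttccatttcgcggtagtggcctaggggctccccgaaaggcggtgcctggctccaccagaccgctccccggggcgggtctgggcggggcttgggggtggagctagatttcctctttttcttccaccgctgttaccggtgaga
Ldha had 5 matches of ACGTG, of which 4 came from 2 palindromes, and Pgk1 and Hk2 had 2 each. Such a window with at least 2 matches made up 6.81% of all windows. The Vegfa window shown had none of either motif. A second Vegfa start had 1 of each, in a window that overlaps annotated exons of the gene. Vegfa counts among the genes with a match through that window alone. Windows of other members that overlap annotated exons were counted too. Pgk1 was at a higher level in C3-TAg than in WT and Hk2 at a lower one, and both windows carry 2 matches. A match is a description of the letters and not of a bound site.

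Each class had members at a higher and members at a lower level in C3-TAg, and only Hilpda and Pdk4 had opposite calls in different classes. A gene was counted as higher or lower where the ratio of its levels was 1.5 or more, among genes with at least 20 UMIs over both libraries. In hormone-sensing cells 3 of the 10 were higher in C3-TAg and 3 lower, where 22.9% of all 12770 genes measured were higher and 9.14% lower. In casein-high cells 1 was higher and 7 were lower, against 31.2% and 10.6% of 12891 genes. In casein-low cells 1 was higher and 8 were lower, against 37.2% and 14.7% of 12805 genes. Of the 3 lower in hormone-sensing cells, Bnip3 and Hk2 were under 20 CPM in both libraries, and among genes with 20 CPM in a library 6.8% were lower and 15.4% higher. The median log2 ratio of C3-TAg over WT over the 10 genes was -0.07, -0.88 and -1.12 in the same order of classes, and that over all genes measured was 0.14, 0.32 and 0.35. Scaling by the trimmed mean of M values (TMM) lowered every log2 ratio by 0.18, 0.34 and 0.24 in these classes, so that the higher calls in the casein-high and casein-low cells were lost. With it 16.96% of all genes were higher and 14.1% lower in hormone-sensing, 17.45% and 17.6% in casein-high and 25.98% and 19.8% in casein-low cells. All intervals below are 95% Poisson intervals that cover counting error only.

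**Figure D1:**
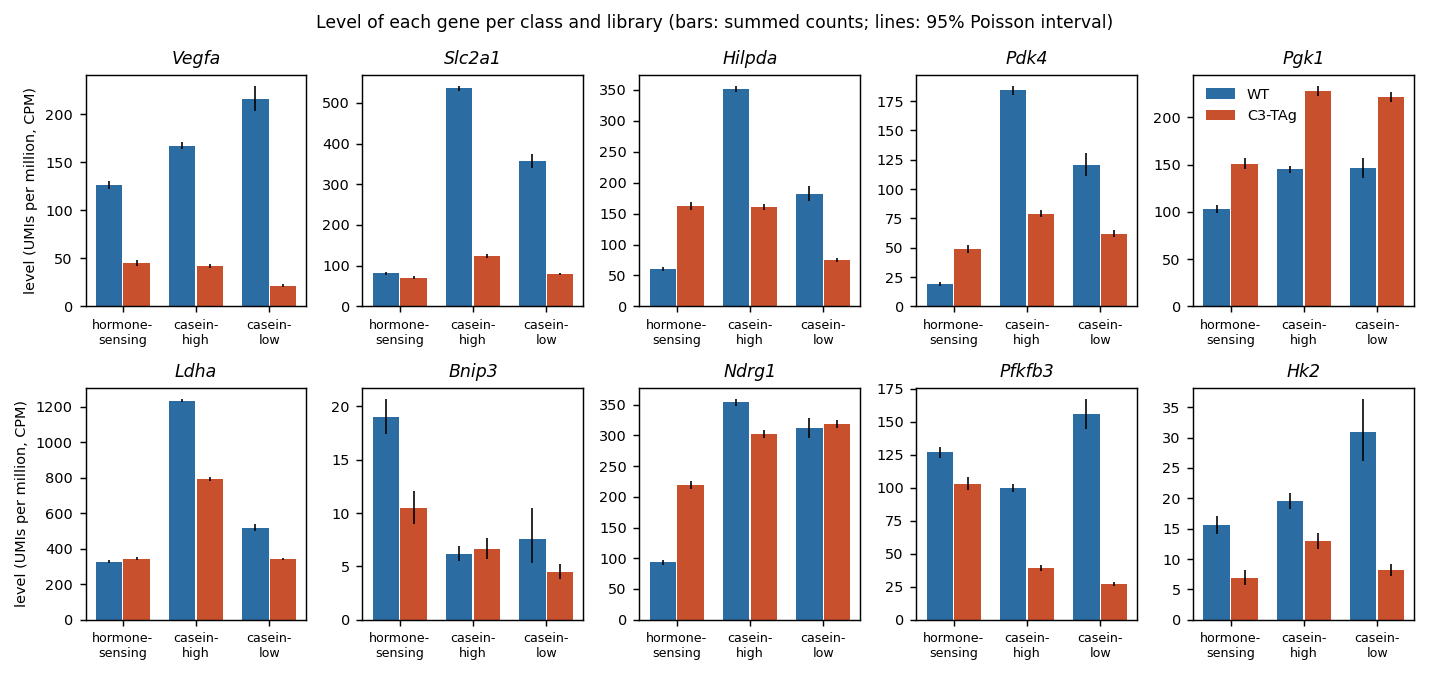
Level of each gene in CPM (vertical axes, from 0) in the 3 classes of the WT and C3-TAg libraries. Bars are summed counts of a class in 1 library and lines their 95% Poisson interval. Vegfa was lower in C3-TAg in all 3 classes, and Hilpda and Pdk4 were higher in C3-TAg in hormone-sensing cells and lower in the others.

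Vegfa (ENSMUSG00000023951, chromosome 17, 46016993 to 46032369, minus strand), the vessel growth factor, was lower in C3-TAg in all 3 classes, and the gap was widest in the casein-low cells. Its WT levels were 126 CPM in hormone-sensing, 167 in casein-high and 216.5 in casein-low cells. In C3-TAg they were 45.2, 42.1 and 21.7 CPM, so that all 3 WT levels lay above all 3 C3-TAg levels. The C3-TAg level was 2.79-fold lower in hormone-sensing (interval 2.58 to 3.02), 3.97-fold lower in casein-high (3.74 to 4.22) and 9.96-fold lower in casein-low cells (9.03 to 10.97). The 2 neighbours in this order whose intervals overlapped were hormone-sensing and casein-high C3-TAg cells. The order of the classes was turned around. In WT the casein-low cells had the highest level, whereas in C3-TAg they had the lowest. Within C3-TAg, G2M-high cells had less Vegfa than G2M-low cells, at 21.8 against 53.2 CPM in hormone-sensing, 40.5 against 47.7 CPM in casein-high and 20.97 against 26.8 CPM in casein-low cells. In WT, with 18 to 38 G2M-high cells a class, the intervals of these ratios included 1. With G2M-low cells alone the log2 ratio over WT was -1.25, -1.81 and -3.01 in the 3 classes. Without the cells carrying non-epithelial markers it was -3.36 in casein-low cells.

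Slc2a1 (ENSMUSG00000028645, chromosome 4, 119108711 to 119137983, plus strand) encodes GLUT1, the main glucose transporter of the secretory cell. It was at 536 CPM in casein-high, 358 in casein-low and 81.2 in hormone-sensing WT cells. The C3-TAg levels were 123.8, 79.5 and 70.25 CPM. The gene was thus 4.33-fold lower in casein-high (4.18 to 4.48) and 4.50-fold lower in casein-low C3-TAg cells (4.23 to 4.79). In hormone-sensing cells, where it was low in both libraries, the difference was 1.16-fold (1.08 to 1.24) and under the threshold. Over every deposited barcode the hormone-sensing log2 ratio was -0.78, past the threshold. The levels of WT hormone-sensing and C3-TAg casein-low cells overlapped in their intervals.

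Hk2 (ENSMUSG00000000628, chromosome 6, 82725025 to 82774454, minus strand) encodes the inducible hexokinase that commits glucose to glycolysis. Its levels were low: 15.5 CPM in hormone-sensing, 19.6 in casein-high and 31.0 in casein-low WT cells. In C3-TAg they were 6.87, 12.97 and 8.11 CPM, below WT in every class. The gene was 2.26-fold lower in hormone-sensing (1.84 to 2.80), 1.51-fold lower in casein-high (1.33 to 1.71) and 3.82-fold lower in casein-low cells (3.098 to 4.69). The casein-high value lay at the threshold, and its log2 ratio was -0.38 in G2M-low cells.

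Pfkfb3 (ENSMUSG00000026773, chromosome 2, 11471433 to 11554077, minus strand) makes fructose 2,6-bisphosphate, the activator of phosphofructokinase. It was at 127 CPM in hormone-sensing, 99.8 in casein-high and 156 in casein-low WT cells. The C3-TAg levels were 103, 39.3 and 27.0 CPM, with hormone-sensing cells far above the others, which was not so in WT. The gene was 2.54-fold lower in casein-high (2.38 to 2.72) and 5.77-fold lower in casein-low cells (5.23 to 6.37), and 1.23-fold lower (1.16 to 1.31), under the threshold, in hormone-sensing cells. In G2M-low cells alone the casein-low log2 ratio was -1.62 in place of -2.53, and the hormone-sensing one was -0.03 in place of -0.30. With a mitochondrial limit of 5% the hormone-sensing value was -0.83, past the threshold. Within C3-TAg the level was 38.7 CPM in G2M-high and 124.7 CPM in G2M-low hormone-sensing cells, 37.3 and 45.95 CPM in casein-high and 23.55 and 49.4 CPM in casein-low cells. In WT casein-low cells it was the other way, at 296 CPM in 18 G2M-high and 152 CPM in G2M-low cells.

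Pgk1 (ENSMUSG00000062070, chromosome X, 106187100 to 106203699, plus strand), phosphoglycerate kinase of the ATP-yielding steps, was the only member at a higher level in C3-TAg in all 3 classes. It was at 103 CPM in hormone-sensing, 145 in casein-high and 145.9 in casein-low WT cells. In C3-TAg it was at 151, 228 and 222 CPM. The ratios were 1.46 (1.39 to 1.55), 1.57 (1.52 to 1.63) and 1.52 (1.40 to 1.65), the first just short of the threshold and the others just past it. With TMM scaling or in G2M-low cells all 3 were below 1.5, and they stayed above 1 in every alternative. The hormone-sensing log2 ratio of 0.55 was 0.91 with a mitochondrial limit of 5%, and it passed the threshold in 4 of 15 alternatives. Within C3-TAg hormone-sensing cells the level was 234.5 CPM in G2M-high and 122 CPM in G2M-low cells. The annotation holds processed pseudogenes of Pgk1 and of Ldha, so reads of near-identical copies may have been split or dropped and both levels are uncertain to that extent.

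Ldha (ENSMUSG00000063229, chromosome 7, 46841475 to 46855627, plus strand) encodes the lactate dehydrogenase subunit that turns pyruvate into lactate. It was at 327 CPM in hormone-sensing, 1234 in casein-high and 519 in casein-low WT cells. C3-TAg cells had 343, 794 and 344 CPM. In both libraries it was thus highest in casein-high cells, and it was 1.55-fold lower in casein-high (1.53 to 1.58) and 1.51-fold lower in casein-low C3-TAg cells (1.45 to 1.58). The hormone-sensing ratio of 1.05 (1.01 to 1.08) was close to 1 and its log2 value ranged from -0.16 to 0.12 over the alternatives. In G2M-low cells the casein-high and casein-low log2 ratios were -0.34 and -0.48, short of the threshold.

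Pdk4 (ENSMUSG00000019577, chromosome 6, 5483351 to 5496309, minus strand) encodes a pyruvate dehydrogenase kinase, which keeps pyruvate out of the citric acid cycle and is induced by fasting, fatty acids and glucocorticoids. In WT it was at 18.8 CPM in hormone-sensing, 184 in casein-high and 120.5 in casein-low cells. In C3-TAg it was at 48.7, 79.1 and 62.0 CPM, and none of the 6 intervals overlapped its neighbour. The WT span of nearly 10-fold between classes (9.78, interval 8.94 to 10.7, casein-high over hormone-sensing) was 1.62-fold in C3-TAg (1.5 to 1.76). The gene was 2.58-fold higher in C3-TAg hormone-sensing cells (2.31 to 2.89), 2.33-fold lower in casein-high (2.22 to 2.44) and 1.94-fold lower in casein-low cells (1.77 to 2.13). The hormone-sensing log2 ratio of 1.37 was 0.43 over every deposited barcode and 0.76 with a mitochondrial limit of 5%. The casein-low one of -0.96 was -0.50 in cells with 2 or more UMIs per 10000 of Csf3 and Icam1.

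Hilpda (ENSMUSG00000043421, chromosome 6, 29272488 to 29275446, plus strand) encodes a lipid droplet protein that inhibits the lipase PNPLA2 and so favours fat storage. Its differences between the libraries had the same signs as those of Pdk4 in the 3 classes, while the order of classes within C3-TAg was not the same. In WT it was at 60.7 CPM in hormone-sensing, 352 in casein-high and 182 in casein-low cells. In C3-TAg it was at 162 CPM in hormone-sensing and 161 CPM in casein-high cells, with overlapping intervals, and at 74.9 CPM in casein-low cells. It was 2.67-fold higher in C3-TAg hormone-sensing cells (2.51 to 2.84), 2.18-fold lower in casein-high (2.11 to 2.25) and 2.43-fold lower in casein-low cells (2.25 to 2.63). In hormone-sensing cells the log2 ratio was 1.42, and it was 1.62 in G2M-low cells and 0.77 with a mitochondrial limit of 5%.

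Bnip3 (ENSMUSG00000078566, chromosome 7, 138890836 to 138909519, minus strand), a mitophagy receptor, was scarce throughout. It was at 19.0 CPM in hormone-sensing, 6.17 in casein-high and 7.58 in casein-low WT cells, the last from 36 UMIs. In C3-TAg it was at 10.5, 6.61 and 4.47 CPM. It was 1.82-fold lower in C3-TAg hormone-sensing cells (1.53 to 2.17), and its casein-high ratio was 1.07, with an interval (0.887 to 1.29) that included 1. The casein-low difference of 1.70-fold (1.14 to 2.46) was weak. Its log2 ratio of -0.76 was -0.39 without the non-epithelial cells and 0.21 in cells with 2 or more UMIs per 10000 of Csf3 and Icam1.

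Ndrg1 (ENSMUSG00000005125, chromosome 15, 66929318 to 66969640, minus strand) encodes a cytoplasmic stress protein that is induced by hypoxia and differentiation. It was at 93.2 CPM in hormone-sensing, 354 in casein-high and 312 in casein-low WT cells. C3-TAg cells had 219, 303 and 318 CPM. It was 2.35-fold higher in C3-TAg hormone-sensing cells (2.24 to 2.48), and differed by less than the threshold in casein-high (1.17-fold lower, 1.14 to 1.20) and casein-low cells (1.02-fold higher, 0.967 to 1.08), where the sign differed in 7 of 16 alternatives. C3-TAg hormone-sensing cells had 372 CPM when G2M-high and 167.5 CPM when G2M-low, and the log2 ratio of 1.23 was 0.85 in G2M-low cells. In the other C3-TAg classes G2M-high cells had the lower level, 296 against 325 CPM in casein-high and 313.5 against 349 CPM in casein-low cells. Where hormone-sensing cells were chosen without Areg, which left 1498 C3-TAg cells with 8.41% G2M-high cells, it was 0.69.

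**Figure D2:**
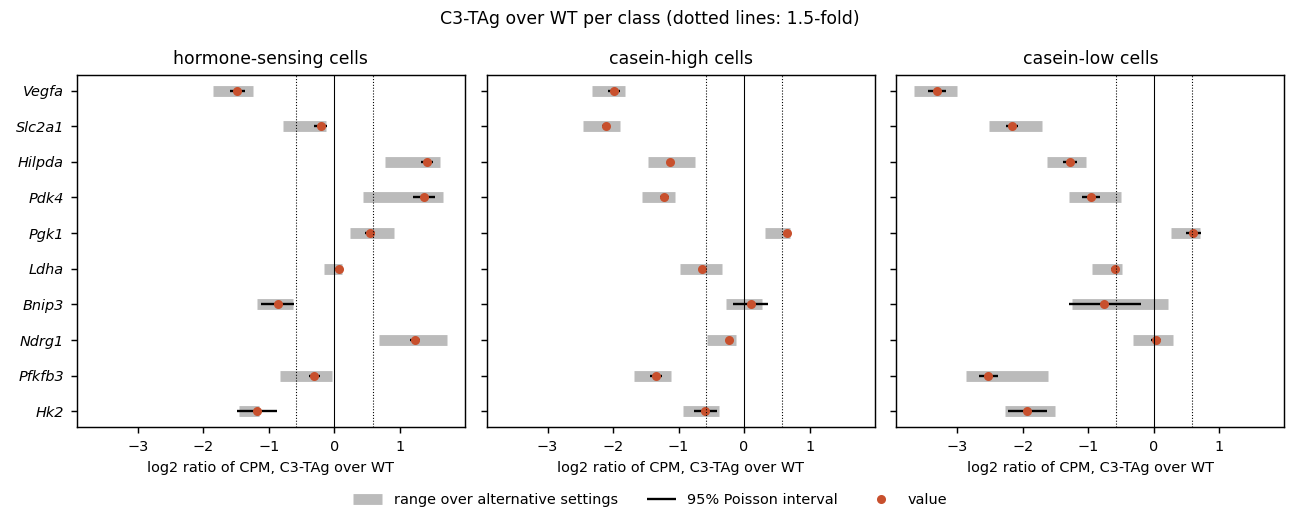
Log2 ratio of the level in C3-TAg over that in WT (horizontal axis) for each gene in the 3 classes. Points are the values, black lines the 95% Poisson interval and grey bars the range over the alternative settings, with dotted lines at 1.5-fold. Vegfa, Slc2a1, Hilpda, Pdk4, Ldha, Pfkfb3 and Hk2 lay left of 0 in casein-high and casein-low cells in every alternative, and Pgk1 right of 0.

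Slc2a1, Hilpda, Pdk4, Ldha and Ndrg1 were lower in hormone-sensing than in casein-high cells of WT, by more than within C3-TAg. In WT 5 members were lower there (19.8% of all genes measured) and 1 was higher (39.4%). With TMM scaling 8 members were lower (27.15% of all genes). The 5 were Slc2a1 (6.60-fold lower), Hilpda (5.79), Pdk4 (9.78), Ldha (3.77) and Ndrg1 (3.80). In C3-TAg the same 5 were lower by 1.76-fold, not at all (ratio 1.01), 1.62-fold, 2.31-fold and 1.38-fold. There 5 members passed the threshold as lower, among them Pgk1 and Hk2 (17.8%), and 2 as higher (28.7%). Bnip3 was higher in hormone-sensing cells in both libraries, 3.08-fold in WT (2.66 to 3.57) and 1.58-fold in C3-TAg (1.28 to 1.95). Pfkfb3 was 1.27-fold higher in hormone-sensing cells in WT (1.22 to 1.33) and 2.62-fold in C3-TAg (2.43 to 2.83), so that for this gene the gap was wider in C3-TAg.

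**Figure D3:**
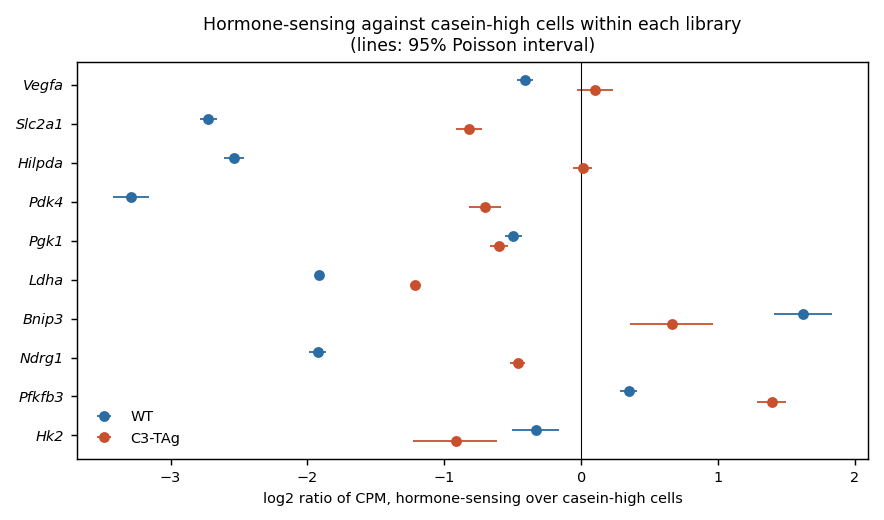
Log2 ratio of the level in hormone-sensing over that in casein-high cells (horizontal axis) within WT and within C3-TAg, with 95% Poisson intervals as lines. The WT values of Slc2a1, Hilpda, Pdk4, Ldha and Ndrg1 lie farther left than the C3-TAg values.

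Against casein-low cells the hormone-sensing cells differed between the libraries, with opposite calls for Vegfa and Hilpda only. In C3-TAg 6 members were within the threshold. In WT 7 members were lower in hormone-sensing than in casein-low cells (22.9% of all genes) and 1, Bnip3, was higher (31.3%). In C3-TAg none was lower (29.6%) and 4 were higher (18.3%), namely Vegfa at 2.08-fold (1.87 to 2.31), Hilpda at 2.17-fold (2.05 to 2.29), Bnip3 at 2.34-fold (1.87 to 2.93) and Pfkfb3 at 3.81-fold (3.51 to 4.14). Casein-high against casein-low cells gave 3 higher members in WT (8.13% of all genes), namely Hilpda, Pdk4 and Ldha, and 2 lower (25.9%), namely Pfkfb3 and Hk2, neither of which was lower with TMM scaling (15.8% of all genes). In C3-TAg 5 were higher (8.99%) and none was lower (30.8%), and with TMM scaling 8 were higher (16.2%). The 5 were Vegfa, Slc2a1, Hilpda, Ldha and Hk2. Ldha kept the same gap in both libraries, 2.38-fold in WT (2.28 to 2.48) and 2.31-fold in C3-TAg (2.26 to 2.37).

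The casein share itself was followed over 5 ranges, from under 0.1% to 5% or more of UMIs, in the cells that were not hormone-sensing. Ldha was higher in each range than in the one below in both libraries, from 422 to 1495 CPM in WT and from 314 to 1263 CPM in C3-TAg. Slc2a1 went from 247 CPM in the lowest range to 582 CPM in the highest in WT, and from 70.8 to 159 CPM in C3-TAg. Every WT range thus lay above every C3-TAg range for the transporter. Pfkfb3 went the other way in WT, from 179 CPM in the lowest range to 89.9 CPM in the highest, and was between 23.3 and 43.0 CPM in C3-TAg. Hk2 had the same order of its end ranges in WT, at 37.9 and 17.6 CPM. Vegfa was at 180 CPM in the lowest and 167 CPM in the highest WT range, with its peak of 231 CPM between 0.1 and 0.5%, and in C3-TAg its level was higher in each range than in the one below, from 20.3 to 60.02 CPM. Its log2 ratio of C3-TAg over WT was -3.15 in the lowest and -1.47 in the highest range. Pgk1 stayed between 131 and 152 CPM in WT and between 214 and 237 CPM in C3-TAg over all 5 ranges.

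**Figure D4:**
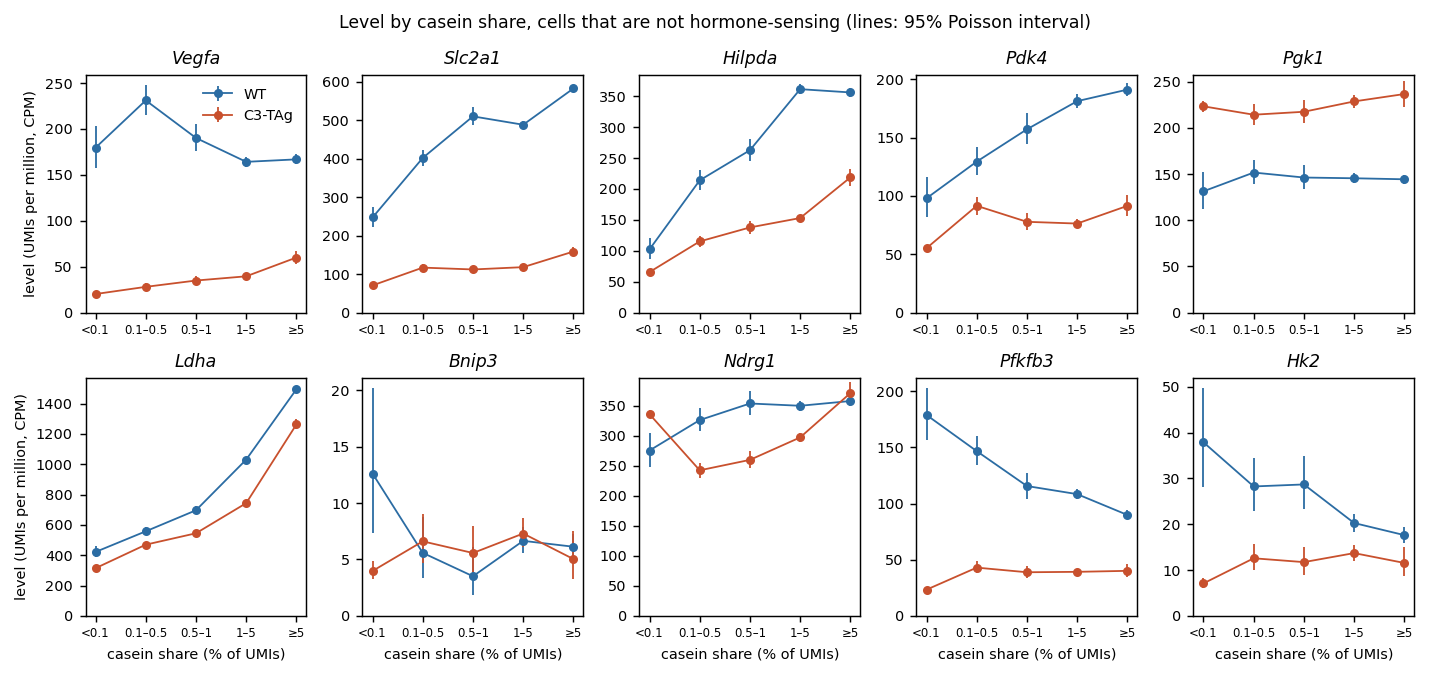
Level in CPM (vertical axes, from 0) against the casein share of UMIs in 5 ranges (horizontal axes) in cells that were not hormone-sensing, with 95% Poisson intervals. Slc2a1 and Vegfa lie higher in WT than in C3-TAg in every range, Pgk1 lies lower, and Ldha climbs with the casein share in both.

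The same cells were also split by other genes. In casein-low WT cells Vegfa was at 262 CPM in the 409 cells with 2 or more UMIs per 10000 of the cytokine gene Csf3 and the adhesion gene Icam1, and at 91.9 CPM in the other 167. In casein-low C3-TAg cells the same split gave 24.3 and 20.7 CPM. The gap between the libraries was thus 10.8-fold among the Csf3 and Icam1 cells (9.32 to 12.5) and 4.44-fold among the others (3.59 to 5.45). Cells were ranked by their share of immediate early genes, which dissociation induces, and cut into 3 equal ranges. WT casein-low cells had Vegfa levels of 162.5, 197 and 293 CPM from the lowest to the highest range, against 21.6, 18.9 and 25.0 CPM in C3-TAg. Vegfa was thus higher in WT in all 3 ranges. In hormone-sensing cells the highest range had the lowest level in both libraries, WT at 97.7 CPM and C3-TAg at 36.9 CPM.

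Hormone-sensing cells were also split by whether Fxyd2 and Cdh13 or Fgb and Calca had more UMIs. Cells with more Fgb and Calca had more Hilpda, 72.3 against 43.0 CPM in WT and 217 against 132 CPM in C3-TAg. Cells with more Fxyd2 and Cdh13 had more Slc2a1, 101.4 against 66.8 CPM in WT and 80.4 against 54.1 CPM in C3-TAg. Both sides of the split were alike in the sign of the difference between the libraries, with Hilpda log2 ratios of 1.62 on the Fxyd2 side and 1.59 on the Fgb side. Pdk4 was at 42.7 CPM in C3-TAg against 17.3 in WT on the first side and at 58.7 against 19.3 CPM on the second. Among casein-low C3-TAg cells, the 941 cells with 2 or more UMIs per 10000 of the basal keratin gene Krt17 had 33.1 CPM of Pdk4 against 74.5 CPM in the rest, and 404 CPM of Ndrg1 against 281.5 CPM. The 176 C3-TAg cells with 5 or more UMIs per 10000 of the matrix gene Fn1 had 19.4 CPM of Pdk4 against 64.4 CPM, and 37.6 CPM of Vegfa against 20.9 CPM.

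The share of cells with a UMI was compared after each cell was thinned to 2000 UMIs, which left out 0 to 22 cells of a class. Slc2a1 was seen in 55.3% of casein-high WT cells (53.7 to 56.9%) and 21.0% of casein-high C3-TAg cells (19.5 to 22.7%), where the shares without thinning were 91.7% and 62.6% at medians of 11802 and 10190 UMIs. Vegfa was seen in 26.5% of casein-low WT cells (22.9 to 30.4%) and 4.39% of casein-low C3-TAg cells (3.72 to 5.13%), without thinning 54.0% and 15.0% at medians of 7609 and 8340 UMIs. Pdk4 was seen in 2.95% of hormone-sensing WT cells (2.35 to 3.66%) and 8.61% of those of C3-TAg (7.43 to 9.92%), without thinning 11.9% and 23.9%. Hilpda was seen in 9.15% and 23.3% of the same cells. The cells with non-epithelial markers, which need not lack these genes, gave wide intervals at medians of 5322 UMIs in WT and 9222 in C3-TAg. Slc2a1 was seen in 0 of 31 such WT cells at 2000 UMIs, which allows a share of up to 11.2% at that depth, and in 27.3% of 33 without thinning. Of the 31 thinned cells 9.68% had a Vegfa or a Hilpda UMI and 3.23% a Pdk4 UMI. Other members were seen more often in them, with Ndrg1 in 67.7% (48.6 to 83.3%) and Pfkfb3 in 45.2% (27.3 to 64.0%). In casein-low WT cells these 2 genes were seen in 39.9% and 22.1%. Of 29 in C3-TAg, 24.1% had an Slc2a1 UMI (10.3 to 43.5%), 6.90% a Vegfa or a Pdk4 UMI and 10.3% a Hilpda UMI. Ndrg1 was seen in 41.4% of these 29 cells and Pfkfb3 in 3.45%. Without thinning 53.3% of 30 such C3-TAg cells had an Slc2a1 UMI and 46.7% a Hilpda UMI. No class of cells known to lack these genes was at hand, so the share that free RNA gives was not measured.

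Pairs of members were looked for in the same cells, again at 2000 UMIs. Between 28 and 39 of the member pairs in a class had 20 or more UMIs in the cells with the first gene, and the median ratio of the second gene with and without the first was 1.03 to 1.09. At most 3 pairs of a class reached 1.5. Hilpda and Pdk4 were among them in casein-high WT cells, where cells with a Hilpda UMI had 236 CPM of Pdk4 and the others 155 CPM (1.52-fold, 1.36 to 1.69). The same pair gave 1.68-fold in casein-low C3-TAg cells (1.304 to 2.13). Slc2a1 and Vegfa were another such pair in casein-low cells, at 1.75-fold in WT (1.34 to 2.28) and 1.86-fold in C3-TAg (1.25 to 2.70). These ratios are descriptions from sparse counts.

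The regulators and the other targets of the hypoxia response were counted on lists. Of 13 measured HIF subunits and regulators, 4 were higher and 0 lower in C3-TAg hormone-sensing cells (22.9% and 9.14% of all genes), 3 and 0 in casein-high (31.2% and 10.6%) and 3 and 1 in casein-low cells (37.2% and 14.7%). Hif1a, the oxygen-labile subunit, was at 205 CPM in C3-TAg and 129 CPM in WT hormone-sensing cells (1.59-fold, 1.52 to 1.67), at 71.1 and 52.0 CPM in casein-high (1.37-fold, 1.29 to 1.45) and at 57.9 and 60.4 CPM in casein-low cells. Vhl, whose product marks HIF-1α for destruction, was at 8.29 CPM in C3-TAg and 4.78 CPM in WT casein-high cells (1.73-fold, 1.44 to 2.09), and within 1.5-fold in the other classes. Epas1 and Arnt were within 1.5-fold in all classes apart from Arnt in casein-low cells (1.55-fold higher, 1.23 to 1.98). Egln3, a HIF hydroxylase that is itself a target, was 2.47-fold lower in casein-low C3-TAg cells (2.09 to 2.91).

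Of the other HIF targets, 8 of 30 measured were higher and 4 lower in hormone-sensing C3-TAg cells (22.9% and 9.14% of all genes). In casein-high cells 8 and 9 of 35 were so (31.2% and 10.6%), and in casein-low cells 6 and 12 of 34 (37.2% and 14.7%). Their median log2 ratios were 0.06, 0.27 and -0.14, beside 0.14, 0.32 and 0.35 over all genes. Ddit4, an inhibitor of mTORC1, was lower in all 3 classes, at 40.1 against 112 CPM in hormone-sensing, 22.8 against 110.5 CPM in casein-high and 39.6 against 145 CPM in casein-low cells. Angptl4, an inhibitor of lipoprotein lipase, went the other way, at 2.31-fold higher in hormone-sensing (2.24 to 2.37) and 1.73-fold higher in casein-high cells (1.69 to 1.78). Cited4 was 7.07-fold higher in casein-high (6.17 to 8.12) and 3.88-fold higher in casein-low cells (3.01 to 5.09).

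The enzymes of glycolysis were on another list. Of 17 measured, 3 of them members, 1 was higher and 2 lower in hormone-sensing, 1 (Pgk1 itself) and 5 in casein-high and 2 and 7 in casein-low C3-TAg cells. Of the 14 that were not members, 1 was higher and 1 lower in hormone-sensing, 0 and 3 in casein-high and 1 and 5 in casein-low cells. The shares of all genes were 22.9% and 9.14%, 31.2% and 10.6%, and 37.2% and 14.7%. In casein-low cells the 2 lowest ratios besides the members, among genes with 20 CPM, were those of Hk1 and Aldoc. Hk1, the constitutive hexokinase, was at 24.4 against 55.2 CPM. The aldolase Aldoc was at 38.1 against 168 CPM (4.42-fold lower, 4.04 to 4.84), while another aldolase gene, Aldoa, was left out. The 2 highest were those of Tpi1 and Pgam1. Tpi1, triosephosphate isomerase, was at 295 against 149 CPM (1.98-fold higher, 1.83 to 2.14), and the phosphoglycerate mutase Pgam1 was 1.34-fold higher (1.22 to 1.48). In casein-high cells Pkm, pyruvate kinase, was 1.44-fold higher (1.41 to 1.47), whereas Hk1 was 1.69-fold lower (1.58 to 1.82) and Aldoc 1.72-fold lower (1.66 to 1.79). In hormone-sensing cells the platelet-type phosphofructokinase gene Pfkp, at 24.6 against 9.59 CPM, was 2.57-fold higher (2.19 to 3.01), Gapdh was 1.21-fold higher (1.18 to 1.24), and Pkm was lower, at 484 against 628.5 CPM, by less than the threshold. The values of Tpi1, Pgam1, Pkm and Gapdh carry the same uncertainty from processed copies as Pgk1.

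**Figure D5:**
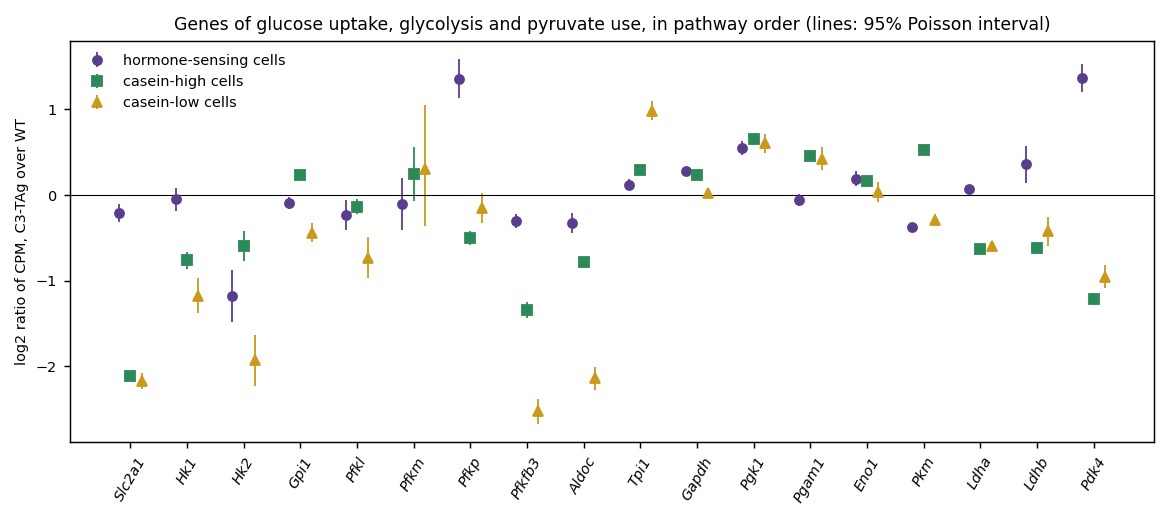
Log2 ratio of the level in C3-TAg over that in WT (vertical axis) for genes of glucose uptake, glycolysis and pyruvate use in pathway order (horizontal axis), one marker per class, with 95% Poisson intervals. In casein-low cells Slc2a1, Hk1, Hk2, Pfkfb3 and Aldoc lie at -1 or lower, while Tpi1 and Pgk1 lie above 0.

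Genes on the same routes as the members were counted too. In casein-low C3-TAg cells, 0 of the 7 other glucose and lactate transporters measured were higher and 4 lower. Of 10 lipolysis partners of HILPDA 1 was higher and 3 lower there, against 37.2% and 14.7% of all genes. In hormone-sensing cells 4 and 2 of 9 transporters and 3 and 2 of 10 partners were so, against 22.9% and 9.14%. Vegfb, a related ligand, was 1.63-fold higher in casein-high (1.48 to 1.80) and 1.79-fold higher in casein-low C3-TAg cells (1.38 to 2.34), in contrast to Vegfa. Of the pyruvate dehydrogenase list, 11 of 14 in casein-low and 10 of 14 in casein-high cells were within 1.5-fold. Of all genes measured, 6156 of 12805 and 7509 of 12891 were so. Pdk3, another kinase of the same enzyme, was at 27.7 against 4.001 CPM in casein-low cells and so 6.91-fold higher (4.40 to 11.5), where Pdk4 was lower. Bsg, the chaperone of the lactate carriers, was within 1.5-fold in all 3 classes, and the lactate carrier gene Slc16a1 was 1.83-fold higher in casein-high (1.66 to 2.02) and 1.68-fold lower in casein-low cells (1.35 to 2.07). Around Hilpda, Plin2, which coats lipid droplets, was 1.68-fold higher in hormone-sensing cells (1.58 to 1.78). Dgat2, which makes triglyceride, was 3.52-fold lower in hormone-sensing (3.23 to 3.83) and 7.14-fold lower in casein-low cells (5.32 to 9.59).

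The genes most like each member were sought over 43 groups of cells, cut by library, class and the splits above, among 7723 genes that reached 20 CPM in any group. The groups overlap and come from 2 libraries, so the correlations of log2 levels describe these groups only. Vegfa was most like Osmr (r = 0.966), the oncostatin M receptor gene, then Chd9 and Tnk2. Slc2a1 was most like Tspan8 (0.985), then Slc13a2 and Stc1. Hilpda was most like Myo1e (0.932), then Crispld2 and Me1, and Pdk4 most like Muc20 (0.953), then Zfand5 and Agt. Pgk1 was most like Hccs (0.982), then Dctpp1 and Rap2c, and Ldha most like Lipa (0.984), then Folr1 and Dab2. Bnip3 was most like Kxd1 (0.946), then Slc5a6 and Dhrs3, Ndrg1 most like Cmas (0.942), then Pfkp and Slc3a2, Pfkfb3 most like Sbno2 (0.967), then Mvp and Prr13, and Hk2 most like Itga2 (0.924), then Tmbim1 and Asl. No member was among the 3 genes most like another member. Between members the highest correlations were Vegfa with Pfkfb3 (0.866), Vegfa with Hk2 (0.859) and Hilpda with Pdk4 (0.855), and the lowest were Pgk1 with Pfkfb3 (-0.887) and Bnip3 with Ndrg1 (-0.842).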

How the data were processed

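The deposited matrices hold UMI counts per gene and barcode, whole numbers that were not normalized, per the file headers. Per the submitters' processing notes, the authors used Cell Ranger 3.1.0 and the mm10 genome. The sources used here do not say how barcodes were called. Groups were taken from the labels. The study submitted 10000 cells per sample.

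Cells were required to have 500 genes and 1000 UMIs, with at most 10% of UMIs from mitochondrially encoded genes, which kept 7406 WT and 8458 C3-TAg barcodes. Doublets were called in each library with Scrublet as run by scanpy 1.11.5 and left out (360 of WT, 4.86%, and 544 of C3-TAg, 6.43%). Other steps used pandas 2.3.3, scipy 1.17.1 and numpy 2.4.6 in Python 3.11.15 and, for TMM factors, edgeR 4.0.16 in R 4.3.3. Cells were not clustered, and no cell annotation was used.

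Counts were summed per library and class and divided by the total (CPM). The 95% intervals are exact Poisson for levels, exact conditional Poisson for ratios and Clopper-Pearson for shares. They cover counting error only. Cells of 1 library are no replicates, so p-values were not computed. A library at 0 was set to a floor of 3 counts. Likeness used log2 of CPM plus 5 over groups of at least 100 cells, leaving out mitochondrially encoded, ribosomal and unnamed genes. The ratio step was tested on simulated counts.

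The members and lists were chosen with earlier results of these data known. From each list the text names genes among the 2 highest and 2 lowest ratios per class at 20 CPM or more, and Hif1a, Epas1, Arnt and Vhl. Values of these genes in other classes, and Plin2 and Ddit4 where they were not at an end, were added after their values were seen. The symbol Aldoa names more than 1 row, so that gene was left out. Alternatives were other filters, gates, scalings, thinning depths and folds. Gene positions are from GENCODE on GRCm38 and promoter windows from RefSeq.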

Additional observations from a re-analysis of the deposited data

Results flagged for a closer look

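Hilpda and Pdk4 had opposite differences between the libraries in different classes. The log2 ratio of C3-TAg over WT of Hilpda was 1.42 in hormone-sensing, -1.12 in casein-high and -1.28 in casein-low cells, and that of Pdk4 was 1.37, -1.22 and -0.96. For Vegfa, Hilpda and Hk2 the order of classes also turned around between the libraries. The log2 ratio of hormone-sensing over casein-low cells was -0.78 in WT and 1.06 in C3-TAg for Vegfa, and -1.59 and 1.11 for Hilpda. That of casein-high over casein-low cells was -0.66 in WT and 0.68 in C3-TAg for Hk2. With 1 library per group none of these differences was tested. The share of G2M-high cells moved with them, and its part in them was not tested. In G2M-low cells the log2 ratios of C3-TAg over WT for Hilpda and Pdk4 had the signs given above, with 1.62 and 1.52 in hormone-sensing cells. These values do not cover the order of classes.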

How the results depend on the processing

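Of 470 log2 ratios of single members under other settings, 305 stayed within their counting interval, 164 moved further and 1 that was past the threshold changed sign. Within the threshold 14 changed sign, 4 of Ldha in hormone-sensing, 3 of Bnip3 in casein-high and 7 of Ndrg1 in casein-low cells. The 1 past it was Bnip3 in casein-low cells, at 0.21 in cells with Csf3 and Icam1, a setting chosen after seeing the data, as was the hormone-sensing gate without Areg. Of 172 counts of members, 151 stayed within 1.5 times. The single higher member in casein-high cells became 0 with TMM or median ratio scaling, totals without milk genes, G2M-low cells and a fold of 2. That in casein-low cells became 0 with both scalings, a mitochondrial limit of 5%, a hormone-sensing gate of 3 per 10000, G2M-low cells, a fold of 2 and cells with Csf3 and Icam1. The lower members in casein-low cells were 5 at a fold of 2, and those in hormone-sensing cells 1 among genes with 20 CPM. Between classes, hormone-sensing cells of C3-TAg had 2 members lower than casein-low cells with a gate of 10 per 10000. Casein-high WT cells had 1 member lower than casein-low cells with a casein gate of 1%, and 0 with TMM scaling or without milk genes in the totals. With TMM scaling 8 members were lower in hormone-sensing than in casein-high WT cells, 8 were higher in casein-high than in casein-low C3-TAg cells, and 1 was higher in hormone-sensing than in casein-high C3-TAg cells. The difference in the share of cells with Ndrg1 in casein-high cells, C3-TAg minus WT, turned to 0.41 percentage points at 5000 UMIs. The cause of these shifts was not tested. Bnip3 and Hk2, at low counts, had the widest intervals. No paired analysis was possible because each group had 1 library. Genotype, animals, preparation and library cannot be told apart, and the 3′ counts do not tell transcript forms of a gene apart.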

Other observations

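Genes of other uses of glucose were counted on further lists. Of 13 genes of glycogen and lactose synthesis, 2 were lower and 4 higher in casein-high C3-TAg cells (10.6% and 31.2% of all genes). In casein-low cells 2 were lower and 1 higher (14.7% and 37.2%). Lalba, the milk protein subunit of lactose synthase, was at 910 against 3165 CPM in casein-high cells (3.48-fold lower in C3-TAg, 3.44 to 3.53). B4galt1, its catalytic partner, was at 69.1 against 147 CPM there (2.13-fold lower, 2.03 to 2.24). Ugp2, which makes UDP-glucose, was 2.14-fold higher in casein-low C3-TAg cells (1.86 to 2.49). Of 13 pentose phosphate and hexosamine genes, 3 were higher and 2 lower in casein-high C3-TAg cells (31.2% and 10.6% of all genes). Taldo1, transaldolase, was at 486 against 310 CPM there (1.57-fold higher, 1.53 to 1.61).

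Of 14 genes that act with Pdk4 in fasting and fat use, 3 were higher and 2 lower in hormone-sensing C3-TAg cells (22.9% and 9.14% of all genes). In casein-high cells 3 and 4 were so (31.2% and 10.6%), and in casein-low cells 4 and 2 (37.2% and 14.7%). Nr3c1, the glucocorticoid receptor gene, was at 29.9 against 13.3 CPM in hormone-sensing cells (2.24-fold higher in C3-TAg, 1.96 to 2.57), and Foxo1 at 39.8 against 61.5 CPM (1.55-fold lower, 1.41 to 1.70). Foxo1 was lower in casein-high C3-TAg cells too (1.66-fold, 1.56 to 1.76). Txnip, a transcript induced by glucose and on the list of glucose sensor genes, was 1.62-fold lower in hormone-sensing (1.57 to 1.67) and 1.66-fold higher in casein-high C3-TAg cells (1.60 to 1.71). Cpt1a, which admits fatty acids to mitochondria, was 2.09-fold higher in casein-high (1.90 to 2.31) and 3.02-fold higher in casein-low cells (2.33 to 3.97).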
